A study of Eptesicus fuscus and Canis lupus familiaris and Equus caballus with 4 samples.

Results

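The largest group of alike hairpins in the big brown bat (Eptesicus fuscus) testis list held 97 of its 762 hairpin candidates, or 12.7% (95% exact Clopper-Pearson interval 10.5 to 15.3%). This interval covers counting error only. It treats candidates as independent, which members joined through each other are not, and leaves out how the count depends on the linking limits. The 97 members lay on 94 contigs of the bat genome. Members were chosen by sequence alone. Starting from Candidate_82, a candidate joined when its hairpin aligned to a member, on either strand, with 80% identity or above across 50 bases or longer. Overlapping hairpins on the same strand were not joined. The lists of 3 species hold 1453 candidates in all.

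The study sequenced small RNA of adult testes from the bat, the horse and the dog, and 1 library of each was analysed here. A hairpin candidate is a genomic stretch that a prediction program judged able to fold back on itself around mapped small RNA reads. A library of another bat individual is not analysed here. There are therefore no replicates, no test was run between groups, and members share a sequence and are not replicates of each other.

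A microRNA (miRNA) is cut from a hairpin transcript, and its seed, bases 2 to 8, does most of the pairing with target RNAs. DNA transposons are mobile elements that often end in inverted repeats, and short copies that consist of little else can fold into a hairpin when they are transcribed. Old copies of such elements collect differences from each other, most quickly at CpG sites, where methylated cytosine decays to thymine. The study's title concerns putative miRNAs from DNA transposons in bats. No library of bat repeats was used here, so the element behind these hairpins is not named.

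The family held 2 kinds of hairpin. A larger kind had 86 members and a smaller kind had 11, Candidate_82 among them. Majority consensus sequences of both kinds are shown because each reads as an inverted repeat. Majority here means the most frequent base at each position. In the larger kind, 37.65% of members with a base at position 44 carried it, and 43.02% at position 80. At positions 61, 62 and 63 it was also carried by under 50%. Capitals mark the arms of the longest perfect inverted repeat, and the letters between them are the loop.
Larger kind: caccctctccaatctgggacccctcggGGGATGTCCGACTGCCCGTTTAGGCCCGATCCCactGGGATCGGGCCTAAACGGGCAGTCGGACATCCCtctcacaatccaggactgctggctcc
Smaller kind: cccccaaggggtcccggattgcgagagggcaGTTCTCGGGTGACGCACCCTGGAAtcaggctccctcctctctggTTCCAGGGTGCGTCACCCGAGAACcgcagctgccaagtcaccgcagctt
The larger consensus is 122 bases long, with arms of 33 bases around a loop of 3 bases. The smaller is 124 bases long, with arms of 24 bases around a loop of 20 bases. RNAfold, a program that predicts how an RNA folds, gave them energies of -86.7 and -76.3 kcal/mol. Both were rich in G and C, at 63.9% and 65.3%.

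Mostly outside the repeat, the kinds shared 1 flank in reverse. The first 29 bases of the smaller consensus matched the reverse complement of bases 3 to 30 of the larger one, with 26 of 29 aligned positions identical (89.7%). The 5′ arm of the larger consensus starts at base 28, so the match runs a little into that arm. The matching runs are shown with the larger kind's already reverse complemented, all in lower case because no part is singled out.
Smaller kind, bases 1 to 29: cccccaaggggtcccggattgcgagaggg
Larger kind, bases 3 to 30 in reverse complement: cccccgaggggtcccagattggagaggg
No hairpin of the larger kind was linked directly to one of the 10 other hairpins of the smaller kind. Candidate_856 alone joined them. It lay at ALEH01161408.1:2686-2802 on the plus strand, was 117 bases long and rested on 1 read. Its bases 1 to 54 aligned to hairpins of the larger kind and its bases 20 to 117 to the smaller kind, so 35 bases took part in both. Capitals mark the bases that aligned only to the larger kind.
Candidate_856: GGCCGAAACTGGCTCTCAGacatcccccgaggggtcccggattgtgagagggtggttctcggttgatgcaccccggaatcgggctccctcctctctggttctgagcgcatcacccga
It had 24 links to the larger kind, the closest at 88.9% identity to Candidate_413, and 8 to the smaller kind, the closest at 88.5% to Candidate_21. The shared stretch holds the flank that both consensus sequences carry. Without Candidate_856, the rule would give the 10 other members of the smaller kind.

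Among the 97 hairpins, 1401 of 4656 possible pairs were linked (30.1%). A member had between 2 and 59 links, with a median of 32. Candidate_853 had 59, and Candidate_177 and Candidate_914 had 58 each. The median identity of a link was 83.5%. Because each arm is close to the reverse complement of the other, 695 pairs aligned in both orientations, while 353 aligned only as listed and 353 only reversed. On their contigs, 45 members lay on the plus strand and 52 on the minus strand. At the identity limit, the weakest member was Candidate_918, whose best link, to Candidate_641, reached 82.3% over 62 bases. Just outside, Candidate_218 aligned to Candidate_509 at 78.8% over 66 bases and Candidate_42 to Candidate_494 at 77.8% over 54 bases. At the length limit, the longest link of each member was taken. The shortest of these was 57 bases, between Candidate_247 and Candidate_821 at 80.7%, and Candidate_42 and Candidate_218 stopped at 48 bases at 81.3%. These values leave out the join between the kinds, where only bases 1 to 54 of Candidate_856 aligned to the larger kind. At a limit of 60 bases Candidate_82 kept 11 candidates, none of them of the larger kind.

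Members differed from their own consensus to unequal degrees. The median identity to the consensus was 88.3% over all 97 members, 88.3% in the larger kind and 88.0% in the smaller kind. These are descriptions, since likeness chose the members. Identity reached 90% in 37 members and was below 80% in 19. Among these 19 are all 16 members, described below, whose 3′ flank departs from the consensus. In those 16 the 3′ flank was a median of 29.4% identical and the repeat 78.1%. The closest, Candidate_858 (ALEH01065209.1:45-143, plus strand), was 96.97% identical, and the farthest, Candidate_446 (ALEH01013854.1:20359-20487, plus strand), 60.2%. Both are shown with the mature sequence, the stretch the program lists as the small RNA, in capitals.
Candidate_858: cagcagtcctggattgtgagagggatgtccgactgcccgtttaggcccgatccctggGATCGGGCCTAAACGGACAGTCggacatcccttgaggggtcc
Candidate_446: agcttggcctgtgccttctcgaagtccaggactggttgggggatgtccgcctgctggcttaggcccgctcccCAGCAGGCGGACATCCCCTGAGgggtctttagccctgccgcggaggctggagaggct

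Differences were not spread evenly along the larger consensus. On average 87.8% of members carried the consensus base in the 5′ arm and 87.5% in the 3′ arm. The loop kept it in 46.4% and the flanks in 82.1%. The flank mean includes the 16 members whose 3′ flank departs from the consensus. In the other 70 members median identity was 94.1% in the 3′ flank and 88.9% in the 5′ flank. In their repeat, loop included, it was 88.4%, so their flanks were not less well kept. The smaller kind had 87.5% and 88.8% in its arms, 84.8% in its flanks and 94.5% in its loop. The loop was thus the most varied region of the larger kind and the least varied of the smaller.

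CpG positions varied more than other positions in both kinds. At the 14 CpG positions of the larger consensus a mean of 69.6% of members had the consensus base, against 86.1% at the other 108 positions. In the smaller kind the means were 65.0% at 16 CpG positions and 91.0% at 108 others. CpG positions made up 11.5% of the larger consensus and held 348 of its 1446 differences (24.1%). In the smaller kind they made up 12.9% and held 59 of 153 (38.6%). Of these, 228 in the larger and 51 in the smaller kind were C to T or G to A, the exchanges that can turn CpG into TpG or CpA. Whether the neighbouring base was kept was not checked. Transitions, exchanges of A with G or of C with T, were 60.8% of all differences in the larger kind and 81.1% in the smaller. Differences of the larger kind include those of the 16 members whose 3′ flank was a median of 29.4% identical to the consensus. That flank holds no CpG position in the consensus, and the shares were not computed without it.

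**Figure D1:**
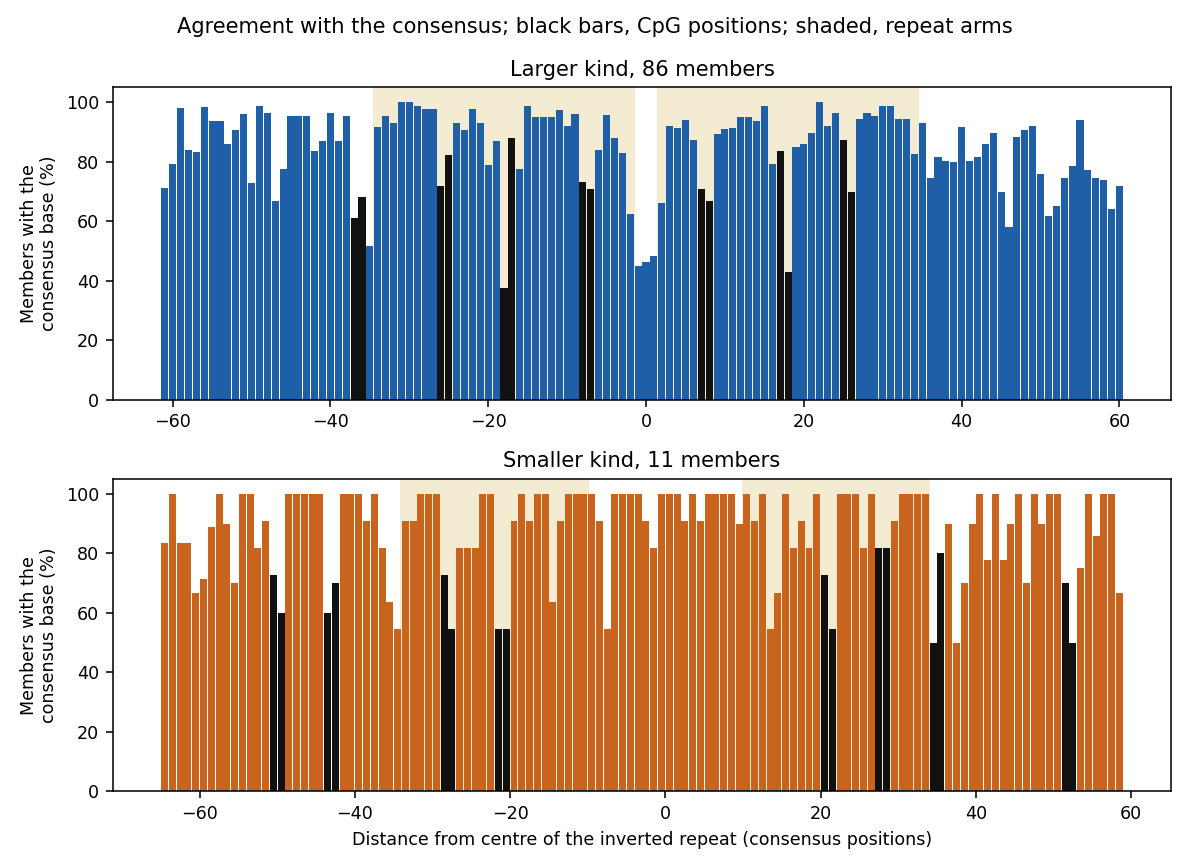
Share of members (%) with the consensus base at each consensus position, by distance from the centre of the inverted repeat, for the larger kind (top, 86 members) and the smaller kind (bottom, 11 members). Shaded stretches are the repeat arms and black bars the CpG positions, which average 69.6% and 65.0%; the larger kind also dips to a mean of 46.4% in its loop.

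In a stem, a base that changes alone ends a Watson-Crick pair, though it can leave a weaker G:U pair, and a partner that changes with it can restore one. In the larger kind 2523 pairs of stem bases could be read over 33 pair positions, and 2077 had both consensus bases. A single base differed in 297 pairs, of which 127 became G:U pairs (42.8%). Both bases differed in 149 pairs, that is in 33.4% of all changed pairs, and 115 of these (77.2%) were again Watson-Crick pairs. Such changes of both partners occurred in 62 of 86 members, at 21 of 33 pair positions and in 33 different forms. The smaller kind had 255 readable pairs, 39 with a single difference and 10 with both bases changed, 7 of them Watson-Crick. Members share sequence, so these counts are not of independent events. The list holds only sequences the program accepted as hairpins, and the part of that choice in these counts was not tested.

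Single pair positions give examples. Changes are written with the consensus base, its position counted from 1 at the consensus 5′ end, and the member's base. At the pair of positions 46 and 78, 65 of 81 members had the consensus T and A, 16 had T46C with A78G, and 0 had only 1 of these bases changed. The pair of positions 44 and 80, inside a CpG in each arm, was the most varied. It had its consensus C and G in 29 of 85 members, C44G with G80C in 17, C44A with G80T in 9 and C44T with G80A in 2. A single base differed there in 11 members, and both bases differed in 45, of which 28 had a Watson-Crick pair. These 45 are part of the 149 pairs of the larger kind with both bases changed. Rarer paired changes included C36T with G88A in 7 members, G45A with C79T in 7 and C54T with G70A in 6. The repeats of 3 members, chosen after these values were seen, show how the changes sit in both arms, with partners that both changed and still form a Watson-Crick pair in capitals. In the consensus the capitals mark the 3 pairs in which Candidate_605 has both bases changed to another Watson-Crick pair. Its other differences are left in lower case.
Larger consensus, positions 28 to 96: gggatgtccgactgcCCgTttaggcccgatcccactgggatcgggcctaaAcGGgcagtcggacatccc
Candidate_605: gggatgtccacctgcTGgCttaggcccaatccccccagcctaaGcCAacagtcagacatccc
Candidate_254: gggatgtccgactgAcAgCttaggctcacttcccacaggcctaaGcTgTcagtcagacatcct
Candidate_918: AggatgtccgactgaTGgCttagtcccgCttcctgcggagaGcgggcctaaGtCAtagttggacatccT
Candidate_605 carried C43T with G81A, C44G with G80C and T46C with A78G. Candidate_254 carried C42A with G82T, C44A with G80T and T46C with A78G. Candidate_918 carried 5 such pairs, the most of any member, and 29 members carried 1, 17 carried 2, 13 carried 3 and 2 carried 4.

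**Figure D2:**
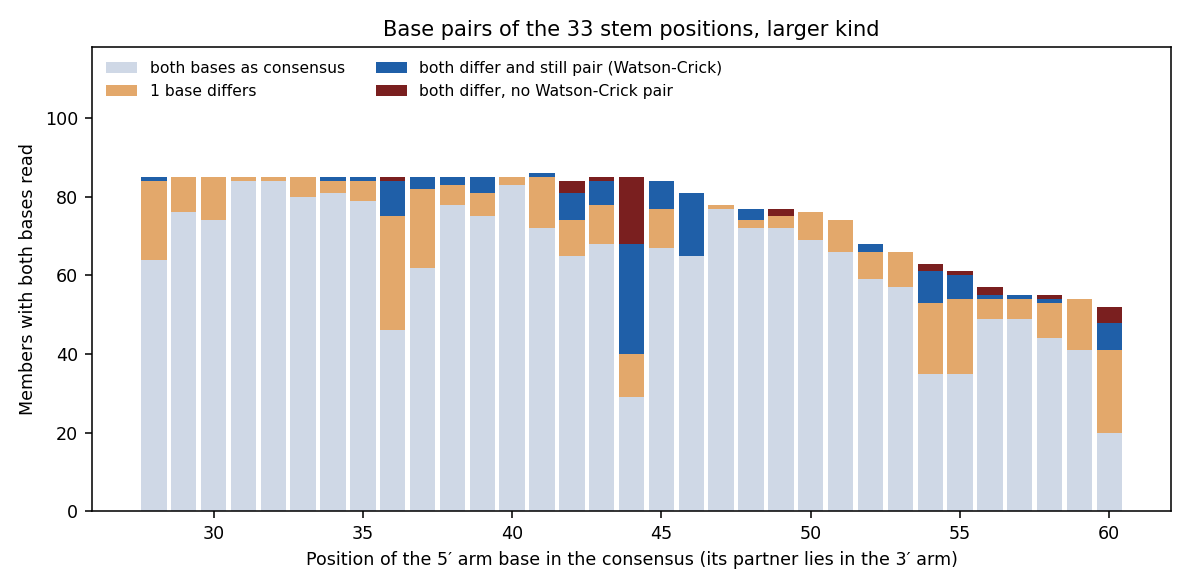
Members with both bases read at each of the 33 stem pairs of the larger kind, by consensus position of the 5′ arm base; colours give both bases as consensus, 1 base different, both different and Watson-Crick paired, or both different without such a pair. The position 46 column has 65 consensus and 16 double-changed members and none with a single change. The position 44 column has 29 consensus and 45 double-changed members, 28 of the latter Watson-Crick paired.

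Over the stem pairs that could be read, the arms stayed close to complementary. A median of 87.9% of readable stem pairs were Watson-Crick in a member of the larger kind (lowest 66.7%, highest 100%). Some members lacked part of an arm in the alignment, and the lowest value, in Candidate_151, rests on 9 of the 33 pairs. The smaller kind had a median of 83.3% (75 to 91.7%).

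The 3′ flank split the larger kind. In 70 members it was 70.6 to 100% identical to the consensus flank, with a median of 94.1%, and in 16 it was 15.4 to 38.5% identical, with a median of 29.4%. No member lay between. The divide at 50% was set after these values were seen. Both flanks are shown in lower case, since they differ along most of their length. The second is a majority that not all of the 16 carry. The flanks of Candidate_74, Candidate_179, Candidate_331, Candidate_446, Candidate_494 and Candidate_641 begin otherwise.
3′ flank of the larger consensus: tctcacaatccaggactgctggctcc
3′ flank, majority of the 16 others: tagcgctgccgcggaggcgggagaggctcc
The 16 also differed elsewhere. They had a median of 7 links (2 to 18) against 40 (4 to 59), their repeat was a median of 78.1% identical to the consensus against 88.4%, and their 5′ flank 75.9% against 88.9%. The paired change T46C with A78G was carried by 11 of these 16 members and by 5 of the 70, and G45A with C79T by 0 of 16 and 7 of 70. These 2 were picked after the values were seen, and no difference was tested. Other changes occurred in both groups, such as C44G with G80C (6 of 16, 11 of 70), C44A with G80T (3 and 6) and C36T with G88A (3 and 4). C54T with G70A (0 and 6) and C60T with G64A (0 and 5) occurred only among the 70. Because the consensus takes the most frequent base over 86 members, its repeat lies closer to the 70 by construction.

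Predicted folds of the members had a lower median energy than those of the 665 other bat candidates. The program selected all of them as hairpins, so the values are given side by side without a test. The median folding energy was -66.5 kcal/mol, or -0.532 per base, against -49.7 and -0.404. The larger kind had -0.545 per base and the smaller -0.456. For comparison, the family of Candidate_347 (47 candidates) had -0.374 and that of Candidate_97 (49 candidates) -0.466. The ranges overlapped, from -0.802 to -0.346 in the family and from -0.802 to -0.225 in the other bat candidates. The share of bases paired was a median of 70.1% against 67.3%.

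Perfect inverted repeats were longer at the median in the larger kind than elsewhere in the bat list. The longest run within a hairpin had a median of 13 bases per arm in the family (6 to 34) and 7 in the other candidates (5 to 43). By kind the median was 14 in the larger and 8 in the smaller, the latter close to the other candidates. At least 20 bases per arm were reached by 26 of 97 members (26.8%, exact 95% interval 18.3 to 36.8%), by 23 of 665 others (3.46%, 2.21 to 5.15%) and by 0 candidates of either comparison family. Of the 26 members, 25 belonged to the larger kind and 1 to the smaller. Candidate_592 combined a repeat of 34 bases per arm with the lowest energy per base, -0.802. Candidate_151 had the weakest fold at -0.346 per base, with a repeat of 7 bases. In Candidate_82, 1 of the 3 members with most reads, the longest perfect run was 6 bases. GC content was also higher, at a median of 59.0% against 54.2%.

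**Figure D3:**
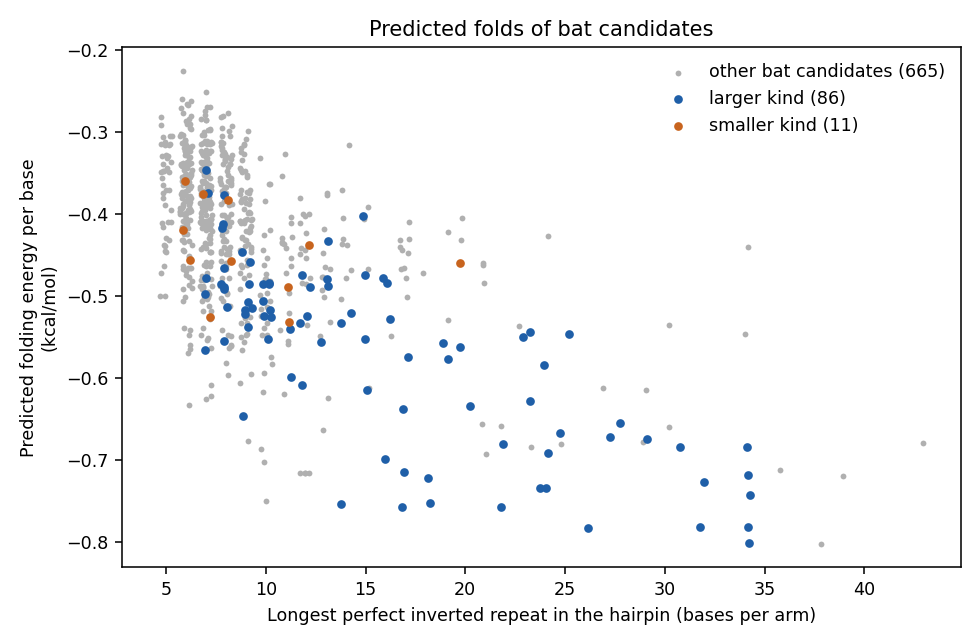
Predicted folding energy per base (kcal/mol) against the longest perfect inverted repeat in each bat hairpin (bases per arm, with a small sideways jitter), 1 point per candidate, for the 86 members of the larger kind, the 11 of the smaller kind and the 665 other bat candidates. The larger kind has a median repeat of 14 bases, the smaller kind of 8 and the other candidates of 7, and the other candidates reach as far, up to 43 bases and -0.802 per base.

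The reads behind the family were few. Its members summed to 154 of the 89091 reads at bat candidates (0.173%), and to 102 with identical mature sequences taken once. Of the 97 members, 68 had 1 read, 16 had 2, 1 had 3, 9 had 4 and 3 had 5. Candidates with a single read made up 70.1% of the family (exact 95% interval 59.96 to 79.0%) and 24.4% of the other bat candidates (21.1 to 27.8%). They made up 59.6% of the family of Candidate_347 and 2.04% of the family of Candidate_97. No member reached 10 reads, against 255 of the 665 others, whose highest count was 9487. Intervals cover counting error only, and sequenced reads without molecular identifiers are not independent molecules.

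**Figure D4:**
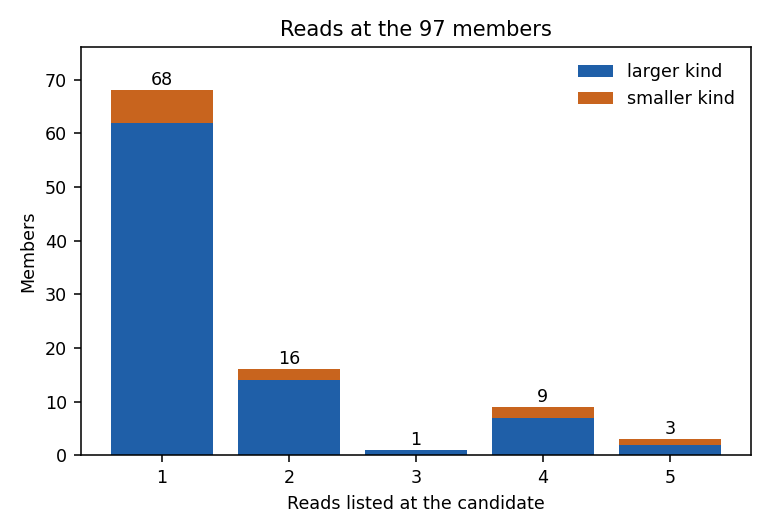
Number of members by the reads listed at the candidate, with the 86 members of the larger kind and the 11 of the smaller kind stacked. The column at 1 read holds 68 of the 97 members, and no column lies beyond 5 reads.

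The 3 members with 5 reads differed in what those reads were. In Candidate_82 (ALEH01051799.1:11921-12037, plus strand) they had 2 distinct read sequences. Candidate_331 (ALEH01096863.1:4440-4576, plus strand) had 5 distinct ones, the most of any member, and Candidate_436 (ALEH01133547.1:1135-1265, plus strand) had 1. Candidate_82 was 90% identical to its consensus, Candidate_436 92.2% and Candidate_331 66.7%. Their hairpins are shown, as those with most reads, with the mature sequence in capitals.
Candidate_82: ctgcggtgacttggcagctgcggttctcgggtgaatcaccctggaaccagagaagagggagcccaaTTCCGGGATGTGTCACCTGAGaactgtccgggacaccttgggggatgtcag
Candidate_331: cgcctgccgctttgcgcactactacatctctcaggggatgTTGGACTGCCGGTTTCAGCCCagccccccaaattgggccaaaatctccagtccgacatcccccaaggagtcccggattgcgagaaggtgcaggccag
Candidate_436: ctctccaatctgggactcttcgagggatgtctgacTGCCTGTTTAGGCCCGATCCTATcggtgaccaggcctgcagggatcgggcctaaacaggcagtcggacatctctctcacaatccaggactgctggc
Candidate_331 is 1 of the 16 members whose 3′ flank departs from the consensus. Across the family, 71 members had 1 distinct read sequence and 5 had 3 or more.

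A read could count for several members. The 97 members listed 62 distinct mature sequences, of which 39 were listed by 1 member, 14 by 2 and 9 by 3 or more. The 58 members that listed a shared sequence carried equal read counts within each of the 23 sets. None of the 62 sequences was found in the hairpin of a bat candidate outside the family. The 9 most shared sequences are shown under their lowest-numbered member, 5′ to 3′, with T as the list writes it and the seed in capitals.
Candidate_183: gATCGGGCctaaacggacagtc
Candidate_178: tAAACCGGcagtgggacatccc
Candidate_754: cTGACTGCcagtttaggcctga
Candidate_125: aTGTCCGActaccagtttaggcc
Candidate_126: aAGGATGTctgactgacagct
Candidate_154: gATCGGGCctaaacgggcaa
Candidate_179: cAGCAGGCggacatcccctgag
Candidate_216: tCGGGCCTaaacgggcagtcggg
Candidate_543: gGCCTGAAcgggcagtcgga
The sequence of Candidate_183 was listed by 5 members with 2 reads at each, and that of Candidate_178 by 4 members with 1 read at each. The sequence of Candidate_754 was listed by 3 members with 4 reads at each and was also held by another member's hairpin. The remaining 6 were listed by 3 members each with 1 read at each. All 9 belong to the larger kind.

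The 62 sequences had 48 different seeds. Of these, 8 occurred in more than 1 sequence and took in 22 of the 62 sequences. By member, 72 of 97 had a seed that another member also had, identical sequences included. CGGGCCT occurred in 4 sequences, led by Candidate_216, Candidate_211, Candidate_509 and Candidate_572 and listed by 7 members. ATCGGGC occurred in 3, led by Candidate_183, Candidate_154 and Candidate_541 and listed by 9 members. Longer likeness was found in both senses. A run of 16 identical bases joined 13 pairs of sequences on the same strand, and 9 pairs when 1 sequence was reverse complemented.

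Mature sequences lay on both sides of the repeat. In the larger kind 47 of 86 had their midpoint on the 5′ side of the consensus centre and 39 on the 3′ side. For the whole family the 3′ share was 42.3% (41 of 97, exact 95% interval 32.3 to 52.7%). In the hairpins as listed, without turning them to the consensus direction, it was 54.6% (53 of 97, 44.2 to 64.8%), so the side with more members turned with the orientation. They lay wholly within the repeat arms in 57 members (58.8%) and outside them in 1. Read on each member's own strand, their 5′ ends fell at 24 different distances from the centre in the larger kind, and the most used distance had 10 members. No single 5′ end was shared by most of the larger kind.

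In 9 of the 11 members of the smaller kind the mature sequence lay on the 5′ side of the consensus, and in 2 on the 3′ side (18.2%, exact 95% interval 2.28 to 51.8%). This interval overlaps that of the larger kind (39 of 86, 45.3%, 34.6 to 56.5%). Both count members that list the same sequence separately, so the overlap is not a test. In the hairpins as listed, 6 of the 11 lay on the 5′ side and 5 on the 3′ side. Their 5′ ends, read on each member's own strand, fell at 7 distances, with at most 3 members at 1 distance. The 11 sequences are shown because 8 of them begin at consensus positions 35 to 38 and end at 55 to 59. The seed is in capitals.
Candidate_21: tTGGGTGAcgcaccccggaat
Candidate_105: tCGGGTGAcacaccctggaat
Candidate_782: tCGGGTGAcacaccctggaat
Candidate_525: tGAGTGATgcaccctggaatc
Candidate_848: tGAGTGATgcaccctggaatc
Candidate_758: cGACGACAtaccctggaatcag
Candidate_856: tGCACCCCggaatcgggctcc
Candidate_82: tTCCGGGAtgtgtcacctgag
Candidate_434: tTCTGGGGtgtgtcgcctg
Candidate_735: tGGTTCTGggtgtgtcaccgg
Candidate_770: cTGTTCTGggtgcatcacccg
Those of Candidate_21, Candidate_105 and Candidate_782 covered consensus positions 36 to 56, and those of Candidate_525 and Candidate_848 positions 37 to 57. Candidate_105 and Candidate_782 listed the same sequence, as did Candidate_525 and Candidate_848, the latter pair with 4 reads in 3 distinct sequences each. Candidate_82 and Candidate_434 were aligned in reverse, so their sequences run against those of the others, over positions 35 to 55 and 37 to 55. The sequences of Candidate_735 and Candidate_770 covered positions 73 to 94 and 72 to 94, so they began in the loop and lay mostly in the 3′ arm.

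**Figure D5:**
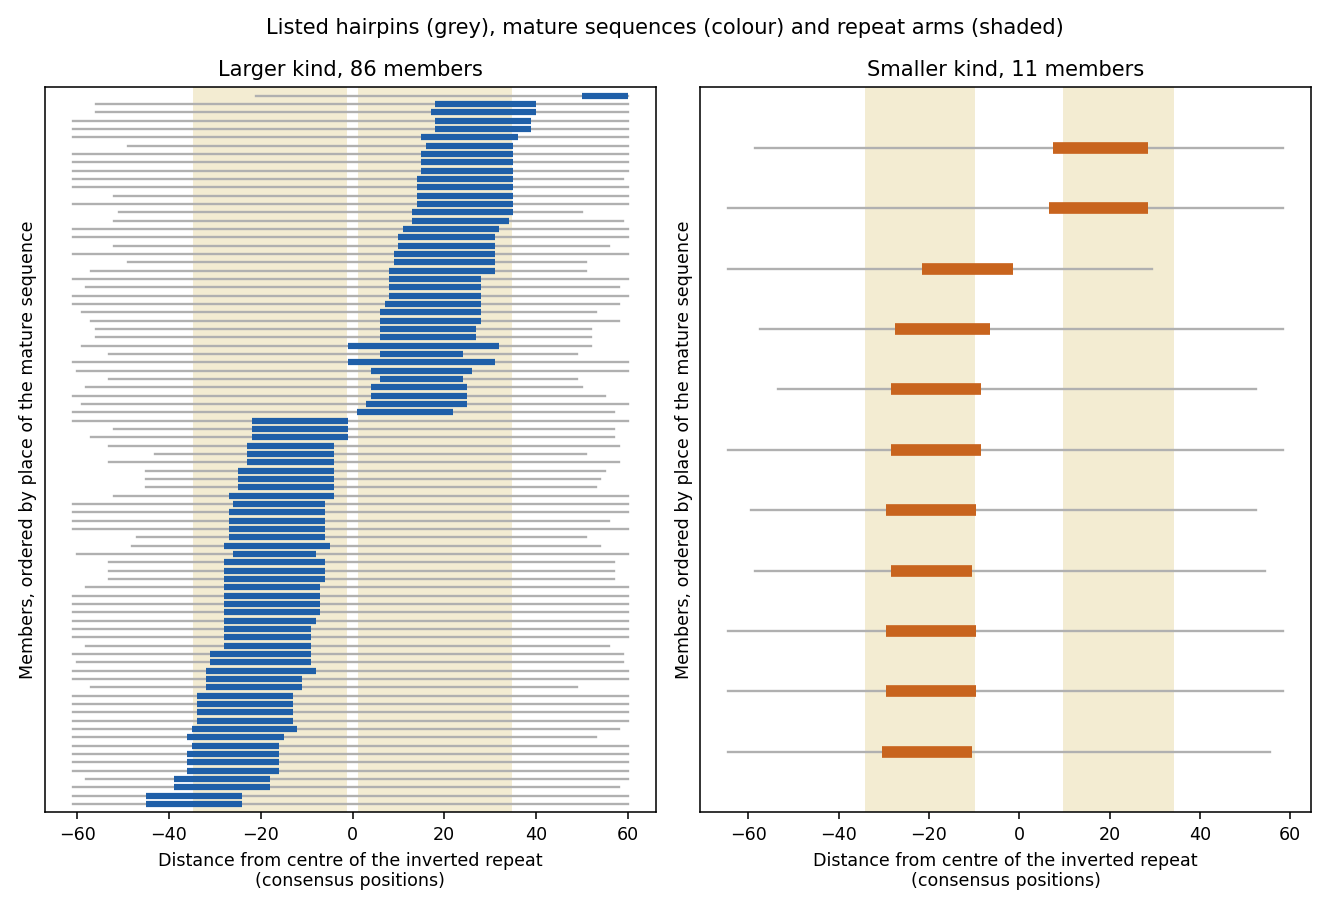
Each line is 1 member, placed by distance from the centre of the inverted repeat in consensus positions, with the listed hairpin in grey, the mature sequence in colour and the repeat arms shaded; left, 86 members of the larger kind, right, 11 of the smaller kind. Mature sequences of the larger kind fall along both arms, while 9 of 11 in the smaller kind lie left of the centre.

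In length the mature sequences were alike. They ran from 19 to 25 bases with a median of 22, and 92 of 97 (94.8%) had 20 to 24 bases, against 76.2% of the other bat candidates. The difference lies largely at 25 bases, the length of 1 member and of 142 other candidates. The 5′ base was U in 40 members (41.2%, exact 95% interval 31.3 to 51.7%) and in 48.1% of the others (44.3 to 52.0%), and these intervals overlap. By kind it was U in 36.1% of the larger kind (25.97 to 47.1%) and in 9 of 11 of the smaller (81.8%, 48.2 to 97.7%). The intervals count members separately although the 97 list only 62 distinct mature sequences, so their overlap is not a test.

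In 13 members, all of the larger kind, the hairpin also held the exact reverse complement of its mature sequence (13.4%, against 1.504% of the other bat candidates). A read of that sequence matches both strands of the stretch. At 3 stretches both strands were listed as separate members. Candidate_469 (ALEH01035239.1:3451-3579, minus strand) and Candidate_470 (ALEH01035239.1:3461-3579, plus strand) list the same mature sequence with 4 reads each, at different places in the stretch. They are shown to make this visible, with the mature sequence in capitals.
Candidate_469: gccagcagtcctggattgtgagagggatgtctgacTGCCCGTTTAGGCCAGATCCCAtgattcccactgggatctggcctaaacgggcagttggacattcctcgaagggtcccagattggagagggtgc
Candidate_470: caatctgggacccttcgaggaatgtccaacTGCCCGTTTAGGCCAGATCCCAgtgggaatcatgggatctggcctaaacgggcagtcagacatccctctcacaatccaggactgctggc
Candidate_752 (ALEH01039129.1:6650-6748, plus strand) and Candidate_753 (ALEH01039129.1:6649-6757, minus strand) do the same with 1 read each. Candidate_35 (ALEH01023541.1:2438-2574, minus strand) and Candidate_36 (ALEH01023541.1:2450-2558, plus strand) have 1 read each, and their mature sequences are reverse complementary over 19 bases. Apart from these, a single pair of members was near identical. Candidate_154 and Candidate_419 agreed at all of 115 aligned bases and lay on the consecutively numbered contigs ALEH01105316.1 and ALEH01105315.1. No member's contig held a bat candidate outside the family.

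Fewer members than other candidates were predicted by every model. All 5 of its models predicted 28 of 97 members (28.9%, exact 95% interval 20.1 to 39.0%), against 54.9% of the other bat candidates (51.0 to 58.7%). The share was 23.4% in the family of Candidate_347 and 91.8% in that of Candidate_97. The remaining members were predicted by 4 models.

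None of the 439 horse or 252 dog hairpins aligned to a member at 50 bases and 80% identity, or at 30 bases and 75%. Taking 3 counts as the limit that a count of 0 allows, the share could be up to 0.683% of the horse and 1.19% of the dog hairpins. At the E-value limit of 0.001 and any length, members had 0 alignments to horse hairpins and 4 to dog hairpins, all short of those limits. No mature sequence of the family was found as an exact match in a horse or dog hairpin on either strand. The lists hold hairpins with testis reads, so they do not show whether the genomes carry the sequence.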

How the data were processed

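Small RNA fractions of adult testis were sequenced as 50 bp single-end reads, per the labels' protocols. The lists were made with miRanalyzer, per the deposited description of columns. The deposited counts, raw, give each candidate's distinct read sequences and its summed reads. The score the authors deposited, 4 or 5, says how many models predicted it. The deposited fraction, a candidate's reads over all reads in the authors' analysis, was not used. The bat build (its contigs have names that start with ALEH) and the mapping settings were not given in the sources used here. Exons, introns and UTRs are not stated because annotation was not used.

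Hairpins were aligned with blastn 2.17.0 (word size 7, E-value 0.001, no dust filter, both strands) and joined by single linkage. Kinds were separated at the member whose removal split the group. Each was aligned with MAFFT 7.526, and the most frequent base of each column filled by at least 50% of members gave the consensus. Folds came from ViennaRNA 2.7.2, the rest from Python 3.11.15 with numpy 2.4.6, pandas 2.3.3, scipy 1.17.1, networkx 3.6.1 and matplotlib 3.10.9. The linking, alignment and arm steps were tried on simulated copies of a random inverted repeat with common flanks, a simpler setting than these data.

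The members and lists were chosen with earlier results of these data known. Candidates named by rule were Candidate_82, the 5 members with most reads, the 3 with most links, the closest and farthest from the consensus, opposite-strand members, the lead of each mature sequence listed by 3 or more members, and pairs at the limits. Others, such as Candidate_856, the members of the smaller kind, Candidate_592, Candidate_151, Candidate_605, Candidate_254 and the near-identical Candidate_154 and Candidate_419, were named after their values were seen.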

Additional observations from a re-analysis of the deposited data

How the results depend on the processing

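The family depended on how links were drawn. It held 99 candidates at 75% identity and at 40 aligned bases, 84 at 85% identity, 98 with megablast scoring and 94 with opposite strands of 1 stretch counted once. At 60 and at 70 bases Candidate_82 kept 11 candidates, the smaller kind with Candidate_856, while the largest group of members held 85 and 82. It kept 2 with same-orientation links only (largest group 95), 5 among candidates with 2 or more reads (largest 22) and 1 at 90% identity (largest 25). Reads were 102 with identical mature sequences once and 5 at 90% identity, where the share of members with 1 read was 0.0% because Candidate_82 stood alone. The median identity was 85.3% with Candidate_82 as the reference, over the 17 members it aligned with. The share of paired bases was 66.7% when arm was aligned to arm. The mature midpoint lay on the 3′ side in 54.6% of listed hairpins. Of 25 alternative values over 7 results, 14 stayed within the spread or within 1.5 times. The megablast, opposite-strand and larger-kind settings were chosen after seeing the data. A family size with all 5 models and a median identity at 90% identity were not run, since Candidate_82 had 4 models and no link. No paired analysis was possible because each library analysed is of a different species, and no result comes from a test.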
